A study of Mus musculus with 9 samples.

Results

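NF-kB is the transcription factor family through which microglia, the resident macrophages of the brain, switch on cytokine, chemokine and survival genes. Its dimers are held in the cytoplasm by inhibitor proteins of the IkB family or by an inhibitory stretch of their own precursor. An upstream signal activates the IkB kinase complex, the inhibitor is phosphorylated and degraded, and the freed dimer enters the nucleus, where one of its targets is the inhibitor gene itself. The transcripts described here are those of the subunits (Nfkb1, Nfkb2, Rela and Relb), of the inhibitors (Nfkbia and Nfkbie) and of the kinases (Chuk, Ikbkb, Ikbke and Ikbkg). They were chosen by symbol as members of the pathway, and all 10 were found among the 757 genes of a neuroinflammation panel read by direct hybridisation of RNA to coloured barcodes (nCounter). These are transcript levels, and neither the location of the proteins nor their phosphorylation was measured.

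The series held 9 samples of sorted cells that the study calls microglia-like. Sham mice gave 3, and 3 each came from mice killed 24 h (TIA 24h) or 3 days (TIA 3d) after a transient ischaemic attack. In TIA mice a filament was passed up the internal carotid artery to block the origin of the middle cerebral artery briefly and was then withdrawn, a step that was left out of the surgery in Sham mice. The labels name neither strain nor sex, and the study names wild-type C57BL6/J mice, young adults of either sex, in its methods and males in a figure legend of this experiment. The time after surgery at which Sham mice were killed is not given in the sources used here, so time since surgery may differ between Sham and either TIA group. All groups shared the saline perfusion, the enzymatic dissociation with actinomycin D in the solution and the sort of live cells positive for CD45 and CD11b, a gate that other myeloid cells can also enter. The labels number the samples of a group, and p-values measure the spread between those samples.

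The depth of the lanes differed with the groups, and every level below is read against it. The deposited values came back as whole barcode counts in 100% of cases (within 0.01 of a whole number). The total count of a lane ran from 6560 to 25582 in Sham, from 7248 to 10929 in TIA 24h and from 29200 to 62883 in TIA 3d. The median gene had 8 to 14 counts in a Sham lane, 8 to 11 in a TIA 24h lane and 17 to 22 in a TIA 3d lane. In bulk samples of this kind, fewer cells of a type and less RNA per cell cannot be told apart. Microglial markers (15 of 18 listed genes measured, P2ry12, Cx3cr1 and Tmem119 among them) made up 3.84% to 27.0% of the summed normalised signal in Sham, 3.23% to 7.13% in TIA 24h and 21.1% to 24.2% in TIA 3d. The third Sham lane stood apart from the other Sham lanes, with the 6560 counts, the 3.84% and a highest single count of 32, where the other Sham lanes had 27.0% and 12.6%. Oligodendrocyte markers (15 of 18 measured) made up 0.661% to 6.13%, 2.95% to 5.97% and 0.364% to 0.719% in the same order. In the third TIA 24h lane they (5.71%) exceeded the microglial markers (3.23%). Astrocyte, neuron, endothelial, blood leukocyte and border macrophage markers each made up at most 1.61% in any lane, with ranges lower in TIA 3d (0.0477% to 0.63%) than in TIA 24h (0.152% to 1.61%). No marker was at 0, but the lowest count was 1 in 8 of the 9 lanes and 2 in the other, and no gene of the table was at 0, so a count of 1 may stand for none. The part of cell makeup and depth in the differences below was not tested.

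Promoters are shown for the 3 transcripts that differed between the time points, so that their sequence can be read beside their levels. Each run gives the 250 bases upstream of an annotated start in the RefSeq annotation of GRCm38.p6, 5′ to 3′ on the strand of the gene, with matches to the kappa B consensus, the letters that NF-kB dimers bind, in capitals. The Nfkbia run is chr12:55492648-55492897 (minus strand), the Nfkb2 run is chr19:46304487-46304736 (plus strand, the first of its 3 annotated starts) and the Rela run is chr19:5637291-5637540 (plus strand).
Nfkbia: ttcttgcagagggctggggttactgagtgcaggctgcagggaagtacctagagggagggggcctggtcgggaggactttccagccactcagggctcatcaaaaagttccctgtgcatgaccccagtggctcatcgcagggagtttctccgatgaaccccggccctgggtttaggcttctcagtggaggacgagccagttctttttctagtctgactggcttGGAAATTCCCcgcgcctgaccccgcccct
Nfkb2: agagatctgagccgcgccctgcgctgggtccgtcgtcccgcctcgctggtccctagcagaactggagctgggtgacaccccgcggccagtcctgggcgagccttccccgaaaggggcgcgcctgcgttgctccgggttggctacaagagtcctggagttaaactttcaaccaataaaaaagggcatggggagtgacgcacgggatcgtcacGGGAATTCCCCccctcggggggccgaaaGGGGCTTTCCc
Rela: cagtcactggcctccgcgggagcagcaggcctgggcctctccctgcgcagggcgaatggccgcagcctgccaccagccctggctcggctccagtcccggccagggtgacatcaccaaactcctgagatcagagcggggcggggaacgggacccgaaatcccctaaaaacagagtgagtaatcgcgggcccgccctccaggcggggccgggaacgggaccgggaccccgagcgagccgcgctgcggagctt

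The Nfkbia promoter held 1 match, which began 29 bases before the start. The Nfkb2 promoter held 3, beginning 39, 38 and 11 bases before the start, of which the first reads the same on both strands and overlaps the second. The Rela promoter held none. Windows were given for 7 of the 10 genes. With the 50 bases after the start included, the consensus was also found before Nfkbie (1 match) and at the other starts of Nfkb2, and in no window of Rela, Chuk, Ikbke or Ikbkg. Nfkb1, Relb and Ikbkb are named only. Over all promoters of this length, 2779 of 32851 windows (8.46%) held the consensus on either strand, and counted by gene 2581 of 27025 did (9.55%). A match describes the letters and not binding.

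Of the 10 transcripts, Rela, Nfkb2 and Nfkbia rose between the TIA times, being higher in the TIA 3d samples, and none passed the test at either time against Sham. Of all 757 genes, 19.2% passed between the TIA times and 11.6% were higher. None of the 3 passed with quantile normalisation, with counts scaled to the lane total or with the lane total as a covariate. The log2 differences between the time points were 2.19 for Rela, 1.62 for Nfkb2 and 1.89 for Nfkbia. With quantile normalisation they were of like size (2.28, 1.87 and 1.79). They shrank to 0.95, 0.52 and 0.84 with counts scaled to the lane total. With the covariate they were 0.79, 0.10 and -0.69, so Nfkbia turned sign. In the same comparison 14 of the 15 measured microglial markers rose, with a median difference of 3.03, and 8 of the 15 oligodendrocyte markers fell, and their part in these 3 differences was not tested. Rela had its lowest values at TIA 24h, with TIA 3d values that overlapped Sham, while the lowest value of Nfkbia and of Nfkb2 was in Sham. The TIA 24h differences from Sham behind this did not pass, and for Nfkb2 the lowest value was a single Sham sample at 1 count, without which the TIA 24h difference from Sham was -0.036. The kinases did not pass the test in any comparison, and Ikbke, which had the lowest mean level of the kinases at TIA 3d, came closest.

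**Figure D1:**
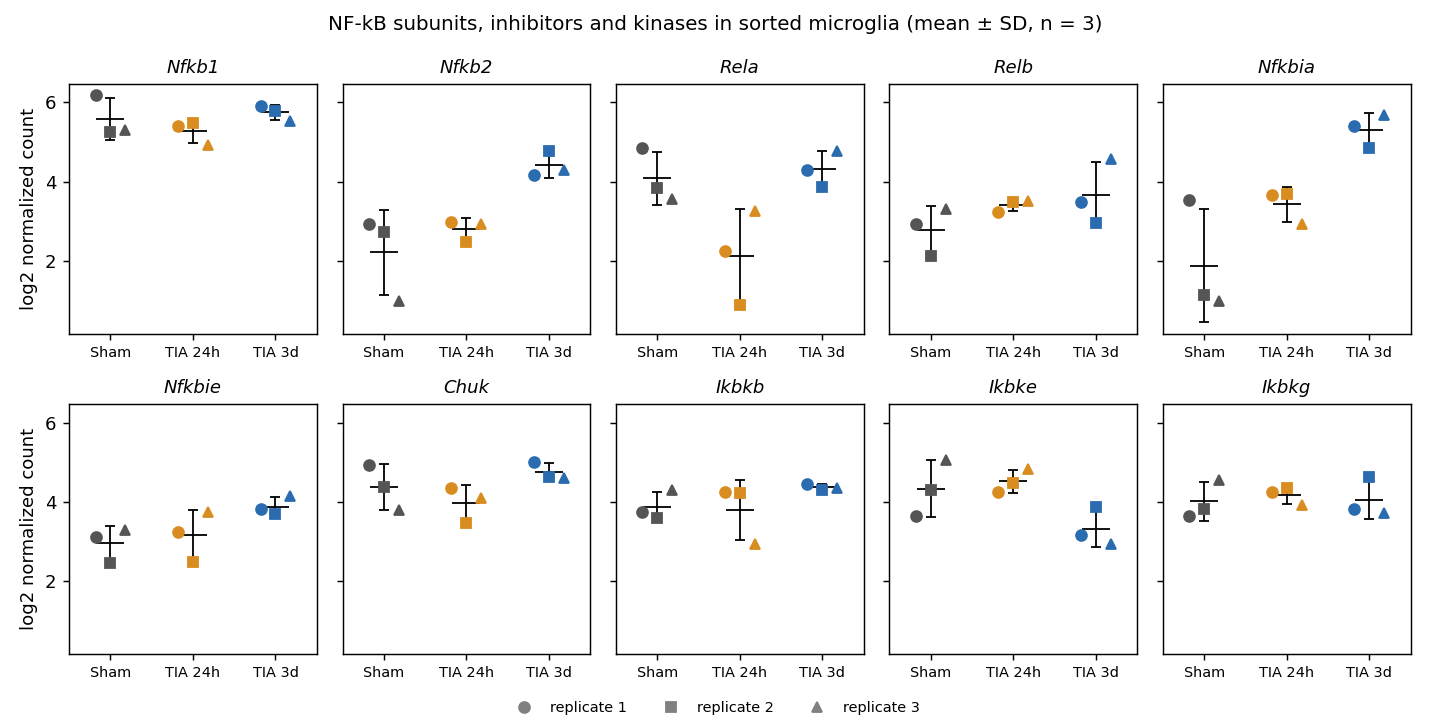
Log2 normalised count of the 10 transcripts in each of the 9 samples by group (one panel per gene, marker shape for the replicate number, line and bar for the mean and SD, n = 3). Nfkbia and Nfkb2 lie above every Sham and TIA 24h sample at TIA 3d, Rela dips at TIA 24h, and Ikbke lies lowest at TIA 3d.

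Rela encodes the p65 subunit, the main transactivating partner of the canonical dimer. Its log2 values were 4.85, 3.83 and 3.56 in Sham, 2.24, 0.89 and 3.24 in TIA 24h, and 4.30, 3.86 and 4.78 in TIA 3d. The counts behind them were 30, 13 and 6, then 3, 1 and 5, then 35, 17 and 50. Every TIA 24h sample lay below every sample of the other groups, on at most 5 counts, and TIA 3d overlapped Sham. TIA 3d exceeded TIA 24h by 2.19 ± 0.58 on the log2 scale (limma estimate and SE, 4.56-fold, adjusted p = 0.0304). Against Sham, TIA 24h differed by -1.95 ± 0.58, with an unadjusted p of 0.00489 and an adjusted p of 0.617 over all genes. The low values at 24 h thus did not pass. Without the third Sham sample the difference was -2.21 (adjusted p = 0.117), and without the first it was -1.57 (adjusted p = 0.916). Without the second TIA 24h sample, the one at 1 count, it was -1.34 (adjusted p = 0.787). TIA 3d against Sham was 0.23 ± 0.58 (adjusted p = 0.839). With the counts of a group pooled and divided by the lanes' scaling, the ratio of TIA 3d to TIA 24h was 4.04, with a 95% interval of 2.05 to 9.09 that covers counting error only.

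Nfkb2 encodes p100, the precursor that is both an inhibitor and, once processed, the p52 subunit of the non-canonical pathway. Its log2 values were 2.94, 2.71 and 0.97 in Sham, 2.98, 2.47 and 2.92 in TIA 24h, and 4.17, 4.77 and 4.30 in TIA 3d. The counts were 8, 6 and 1, then 5, 3 and 4, then 32, 32 and 36. All 3 TIA 3d samples lay above the other 6, which overlapped each other, and the lowest Sham value rested on 1 count. TIA 3d exceeded TIA 24h by 1.62 ± 0.51 (3.08-fold, adjusted p = 0.0455) and differed from Sham by 2.21 ± 0.51 (4.61-fold, adjusted p = 0.114). TIA 24h differed from Sham by 0.58 ± 0.51 (adjusted p = 0.783). Without the first Sham sample the difference of TIA 3d from Sham was 2.57 (adjusted p = 0.00965). That lane was the deepest of Sham, and without it 84 of all 757 genes passed in this comparison. Without the third, the one at 1 count, the Nfkb2 difference was 1.59 (adjusted p = 0.22). Without any other single sample its adjusted p was 0.114 to 0.374. It was 1.21 with counts scaled to the lane total and 1.10 with the lane total as a covariate, and did not pass with either. The pooled count ratio of TIA 3d to Sham was 3.44 (95% interval 1.99 to 6.38, counting error only).

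The other subunits did not pass the test. Nfkb1, which encodes p105, the precursor of p50, was among the brighter genes of the panel, above 83.2% to 96.6% of all genes in each lane. Its log2 level was 5.58 ± 0.53 in Sham, 5.27 ± 0.30 in TIA 24h and 5.75 ± 0.19 in TIA 3d (mean ± SD, n = 3). Its counts were 76, 35 and 20, then 27, 24 and 16, then 107, 65 and 85. All TIA 3d values lay above all TIA 24h values, and the difference of 0.48 ± 0.41 had an adjusted p of 0.385. Relb, the usual partner of p52, was at 2.79 ± 0.60, 3.41 ± 0.14 and 3.66 ± 0.82, with 4 to 8 counts in the Sham and TIA 24h lanes and 20, 9 and 43 in TIA 3d. Its groups overlapped at every step, and TIA 3d against Sham was 0.88 ± 0.48 (adjusted p = 0.305).

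Nfkbia encodes IkB alpha, the inhibitor whose resynthesis closes the canonical response. Its log2 values were 3.52, 1.13 and 0.97 in Sham, 3.66, 3.69 and 2.92 in TIA 24h, and 5.40, 4.86 and 5.69 in TIA 3d. The counts were 12, 2 and 1, then 8, 7 and 4, then 75, 34 and 94. TIA 3d stood above all other samples, and the first Sham sample lay within the TIA 24h values while the other Sham samples lay below them. TIA 3d exceeded TIA 24h by 1.89 ± 0.61 (3.71-fold, adjusted p = 0.0474). The difference of TIA 3d from Sham, 3.44 ± 0.61, had an adjusted p of 0.0558. Its unadjusted p (7.37e-05) was the smallest of the 10 transcripts in any comparison. This difference was 2.37 with counts scaled to the lane total (adjusted p = 0.0756). With the lane total as a covariate it was 1.57 (adjusted p = 0.973). TIA 24h differed from Sham by 1.55 ± 0.61 (unadjusted p = 0.0241, adjusted p = 0.647). That value was 2.37 without the first Sham sample (adjusted p = 0.121) and 1.10 without the third (adjusted p = 0.363). Without the first Sham sample, the only one above 2 counts, TIA 3d differed from Sham by 4.26 (adjusted p = 0.00024). That lane was the deepest of Sham (25582 counts), with 27.0% microglial markers. Without it 84 of all 757 genes passed for TIA 3d against Sham, where 0 passed with all samples. Without the third Sham sample the Nfkbia difference was 2.99 (adjusted p = 0.135), and without the third TIA 3d sample it was 3.25 (adjusted p = 0.374). Pooled counts gave a ratio of 6.99 for TIA 3d to Sham (95% interval 4.14 to 12.7, counting error only) and of 1.83 for TIA 24h to Sham (0.884 to 3.88), an interval that includes 1.

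Nfkbie encodes IkB epsilon, another inhibitor of the same family. Its log2 level was 2.95 ± 0.44 in Sham, 3.15 ± 0.63 in TIA 24h and 3.87 ± 0.23 in TIA 3d, on 3 to 9 counts in the Sham and TIA 24h lanes and 25, 15 and 32 in TIA 3d. The TIA 3d values, 3.81, 3.68 and 4.13, lay above all Sham values and overlapped TIA 24h. Its difference from Sham was 0.92 ± 0.44 (adjusted p = 0.268).

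Chuk, Ikbkb and Ikbkg encode the canonical complex, respectively the catalytic subunits IKK alpha and IKK beta and the scaffold NEMO. Chuk was at 4.36 ± 0.58, 3.97 ± 0.45 and 4.74 ± 0.23 on the log2 scale in Sham, TIA 24h and TIA 3d. Ikbkb was at 3.88 ± 0.37, 3.79 ± 0.75 and 4.36 ± 0.08. Both had TIA 3d values above all TIA 24h values, by 0.77 ± 0.43 for Chuk (adjusted p = 0.2) and 0.57 ± 0.45 for Ikbkb (adjusted p = 0.348). Ikbkg was at 4.01 ± 0.49, 4.17 ± 0.22 and 4.05 ± 0.50, its groups overlapped, and its differences lay between -0.12 and 0.16, within their SE of 0.43.

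Ikbke encodes IKK epsilon, a relative of the complex kinases known from the interferon response. Its log2 values were 3.64, 4.30 and 5.06 in Sham, 4.24, 4.47 and 4.83 in TIA 24h, and 3.17, 3.86 and 2.94 in TIA 3d. All TIA 3d values were below all TIA 24h values, and the difference was -1.19 ± 0.46 (adjusted p = 0.0757). Its recovered counts were nearly level, however, at 13, 18 and 17, then 12, 12 and 15, then 16, 17 and 14. Over the 9 lanes, whose totals differed 9.59-fold, the Ikbke count differed 1.5-fold, and 0 of the 757 genes had a smaller range (median gene 5.92-fold). Its variance over lanes was 0.343 of its mean, below the value of 1 that counting error alone gives. Background probes were not analysed here. The normalised level of Ikbke thus followed the scaling of the lanes, and its call changed with the setting, with an adjusted p of 0.0129 with array weights and 0.0474 and 0.0432 without the first and without the third Sham sample.

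The relation of each transcript to depth was measured in Sham and TIA 24h together (6 lanes), with the deep TIA 3d lanes left out. Ikbke fell with the log2 total of the lane (Pearson r = -0.94, exact permutation p = 0.00278, 0.0278 after adjustment over the 10 transcripts; Spearman rho = -0.94, p = 0.0167, adjusted 0.167), which restates its level counts and is no separate result. Without the 2 lanes farthest from the median, its r was -0.93. Chuk had an r of 0.88 (exact permutation p = 0.0167, adjusted 0.0835), which was 0.60 without those 2 lanes. For Rela, Nfkb2 and Nfkbia r was 0.60, 0.53 and 0.21, with exact permutation p of 0.207, 0.236 and 0.704. Without the 2 lanes it was -0.44, 0.66 and 0.72, so no relation to depth was settled for these 3 on so few lanes.

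**Figure D2:**
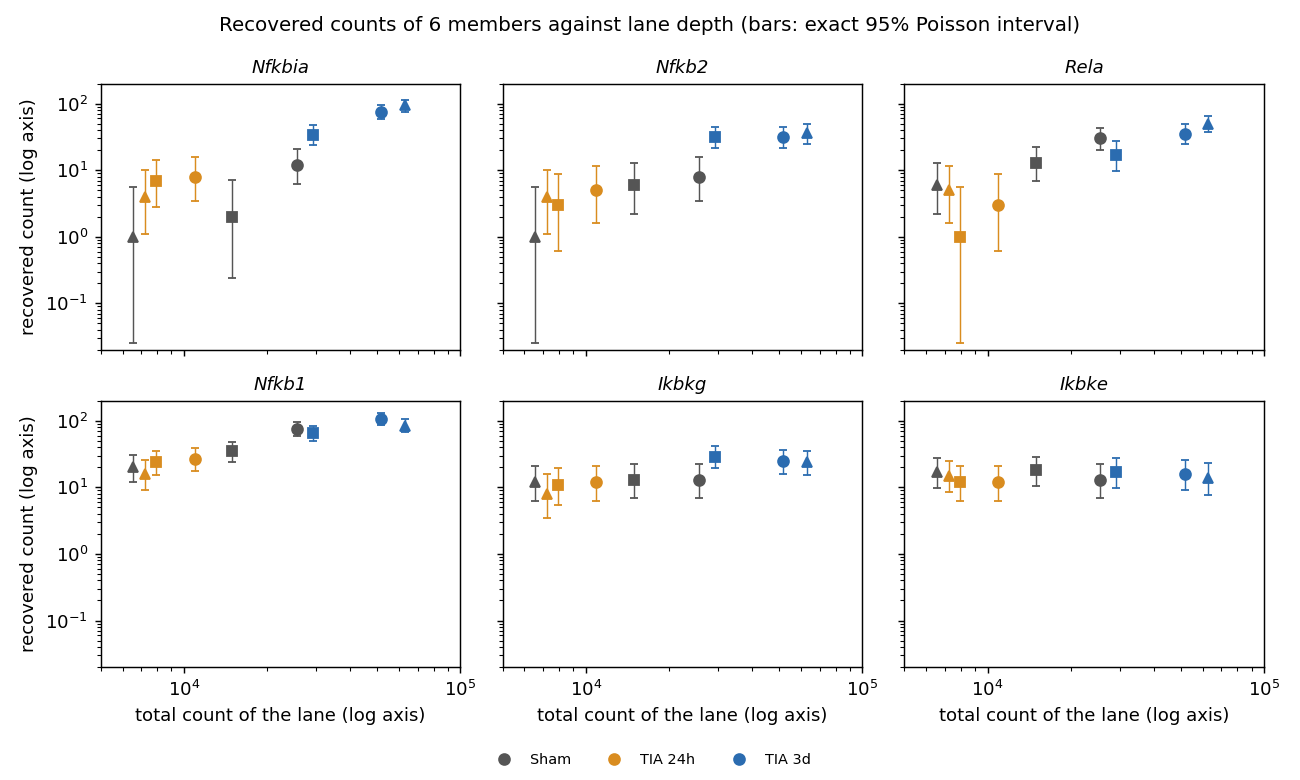
Recovered counts of Nfkbia, Nfkb2, Rela, Nfkb1, Ikbkg and Ikbke in the 9 lanes against the total count of the lane (both axes log, bars for exact 95% Poisson intervals, colour for the group, shape for the replicate number). The 3 TIA 3d lanes are the deepest, Nfkbia and Nfkb2 counts are far higher in them, and Ikbke counts stay between 12 and 18 throughout.

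The 10 transcripts were also counted beside the whole panel. Across the 3 groups 0 of 10 passed the moderated F test of limma and 0 of 757 genes did (0%), with 4 and 235 at an unadjusted p under 0.05. The smallest adjusted p values were 0.0533 for Nfkb2 and Nfkbia and 0.0573 for Rela. For TIA 24h against Sham 0 of 10 passed (0% of all genes), 2 of 10 and 57 of 757 had an unadjusted p under 0.05, and the median difference was 0.17 against 0.15 over all genes. Only Rela had groups that did not overlap, where 9.78% of all genes did.

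For TIA 3d against Sham 0 of 10 passed (0% of all genes), with 3 of 10 and 148 of 757 at an unadjusted p under 0.05. The values of 9 of 10 were above Sham on average, with a median difference of 0.43 against -0.01 over all genes. Nfkb2, Nfkbia and Nfkbie lay above all Sham samples, and 24.2% of all genes did not overlap in either direction. For TIA 3d against TIA 24h 3 of 10 passed and all were higher, beside 19.2% of all genes in either direction and 11.6% that were higher. At an unadjusted p under 0.05 there were 4 of 10 and 304 of 757. The count over all genes was itself unstable, at 0 of 757 without the second or the third TIA 24h sample or without the first or the third TIA 3d sample, and at 7 with quantile normalisation. The split of all genes that passed was 88 higher and 57 lower, against 123 and 21 with median-centred samples and 35 and 344 with counts scaled to the lane total. The median difference was 0.65 against -0.25 over all genes, and relative to that shift Rela differed by 2.43, Nfkbia by 2.14 and Nfkb2 by 1.87. Without overlap were 7 of 10 (6 higher, and Ikbke lower), beside 48.3% of all genes. The comparisons share their samples in pairs and are not independent of each other.

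**Figure D3:**
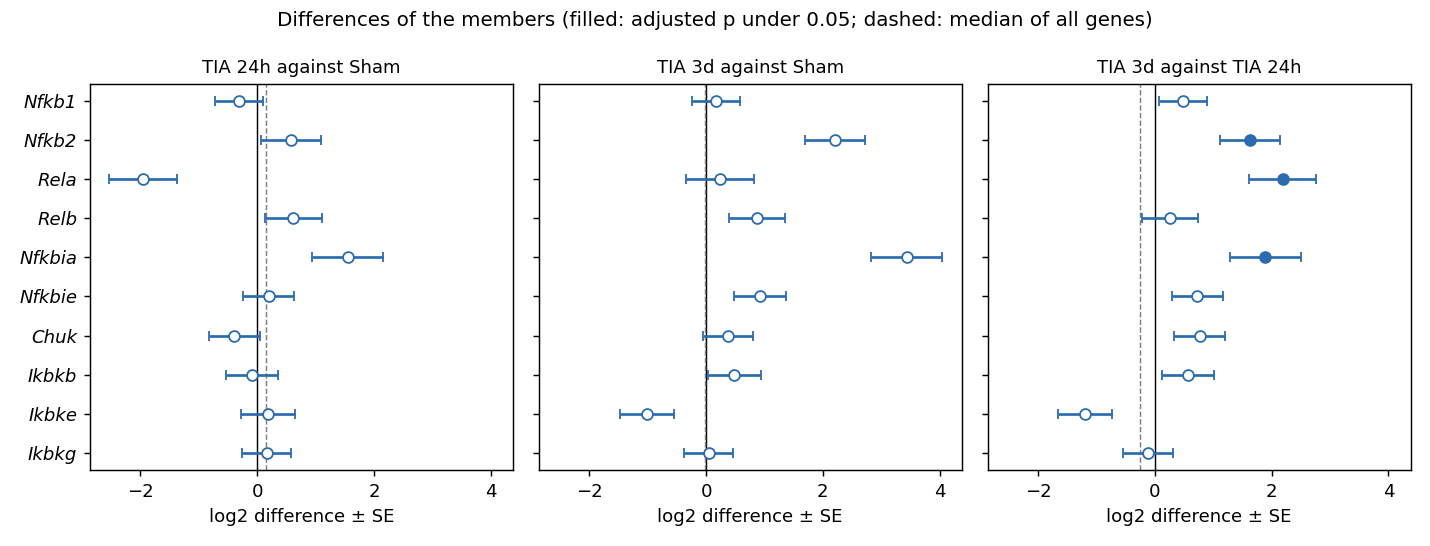
Log2 differences with SE of the 10 transcripts in the 3 comparisons (filled points for an adjusted p under 0.05, dashed line for the median of all 757 genes). Filled points appear only for Rela, Nfkb2 and Nfkbia at TIA 3d against TIA 24h.

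The calls between the TIA times depended on single samples and on the scaling. Rela kept an adjusted p under 0.05 without any one Sham sample or without the second TIA 3d sample (0.0128 to 0.0423), and had 0.0522 to 0.106 without any one TIA 24h sample or without either the first or the third TIA 3d sample. Nfkb2 and Nfkbia passed without the first or the third Sham sample (0.00826 to 0.0259), and without any other sample their adjusted p was 0.0502 to 0.149. The log2 differences over these repeats were 1.57 to 2.75 for Rela, 1.45 to 1.75 for Nfkb2 and 1.64 to 2.12 for Nfkbia. With counts scaled to the lane total instead, they were 0.95, 0.52 and 0.84, none passed, Ikbke differed by -2.15 and was the one that did (adjusted p = 0.0126), and the median of all genes was -1.27. With the log2 lane total as a covariate they were 0.79, 0.10 and -0.69, and none passed. Nfkbia also lost its call with voom on the recovered counts (1.71, adjusted p = 0.0666). Since the deep lanes are those of TIA 3d, depth and time point cannot be told apart.

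**Figure D4:**
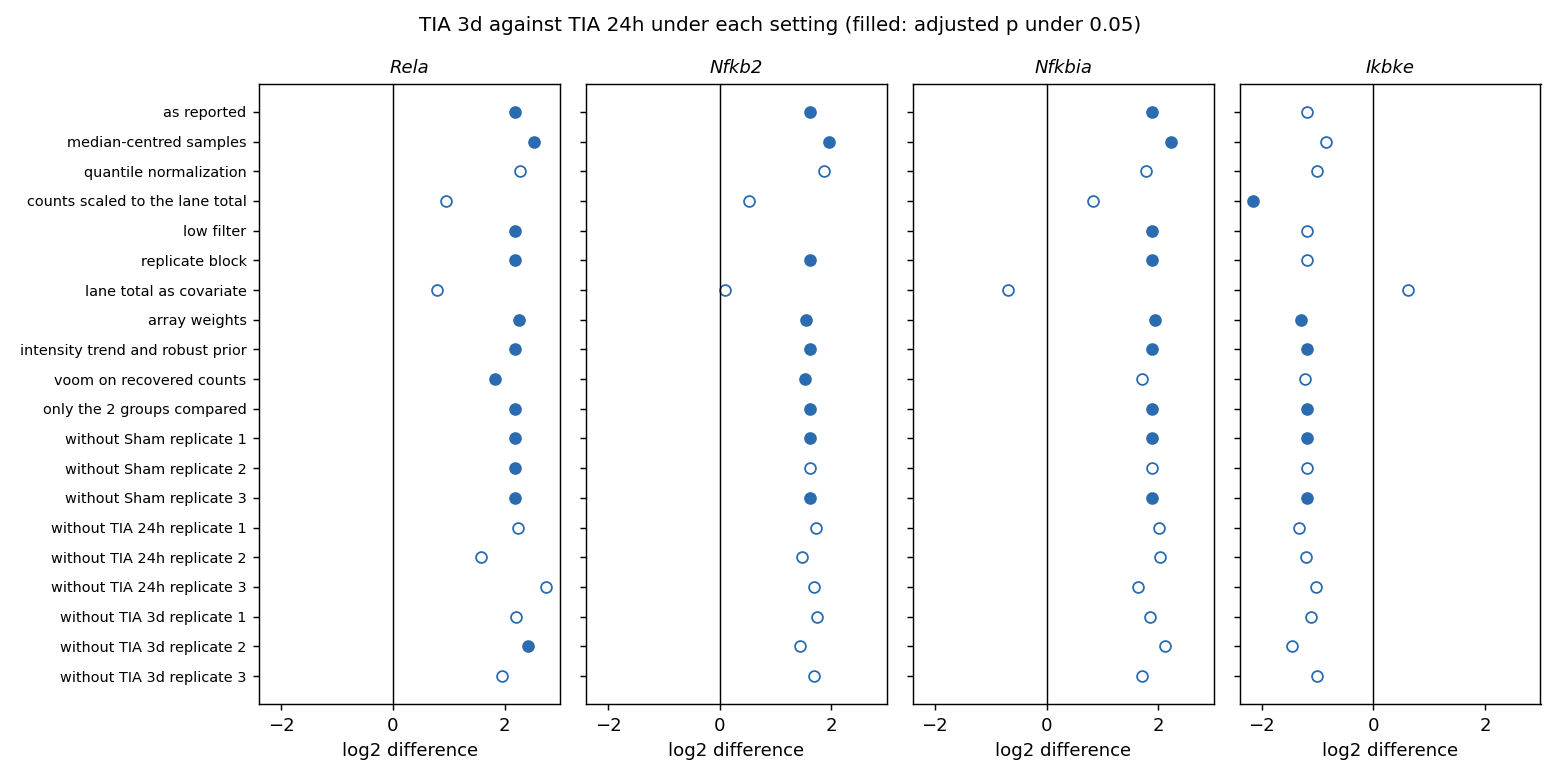
Log2 difference of TIA 3d against TIA 24h under each setting for the transcripts shown (filled points for an adjusted p under 0.05). Rela and Nfkb2 stay above 0 under every setting plotted, and Nfkbia falls below 0 with the lane total as a covariate.

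The wider pathway on the panel was read from lists of receptors, adaptors and known target transcripts. No gene of a list of other regulators (0 of 18) was measured. None of the listed genes passed at either time against Sham. Between the TIA times the counts below stand beside 11.6% of all genes that passed as higher and 19.2% in either direction, and with the lane total as a covariate 0 of the 757 genes passed. Of the receptors that feed NF-kB, 12 of 22 listed were measured and 3 rose from 24 h to 3 days, namely Tlr7, the endosomal sensor of single-stranded RNA (2.24, adjusted p = 0.0232), Tnfrsf1a, the main TNF receptor (1.30, adjusted p = 0.0474), and Ltbr, a receptor of the non-canonical pathway (1.79, adjusted p = 0.0493). With the covariate these differences were 0.19, 0.021 and 0.68, and with counts scaled to the lane total 1.22, 0.31 and 0.57. The median differences of the 12 were -0.13 at 24 h and 0.36 at 3 days relative to Sham, and 0.92 between the TIA times. Of the adaptors and upstream kinases, 16 of 30 were measured, 0 were higher and 1 was lower, Irak3, a brake on Toll-like receptor signalling (-1.68, adjusted p = 0.0229). Irak3 had 8 to 11 counts in the Sham and TIA 24h lanes and 9, 7 and 8 in TIA 3d, so its counts were level in the manner of Ikbke.

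Among transcripts known as NF-kB targets, 22 of 34 were measured, and between the TIA times 7 rose and 2 fell. The cytokine Il1a was higher by 4.45 (adjusted p = 0.0229), from 9, 1 and 1 counts to 134, 80 and 184. The chemokines Ccl3 and Ccl4 were higher by 2.60 (adjusted p = 0.0373) and 1.88 (adjusted p = 0.0455). The others were the survival gene Bcl2a1a (2.31), Cd83 (1.74), the inflammasome sensor Nlrp3 (1.52) and the transcription factor Irf1 (1.51). The chemokine Ccl5 fell (adjusted p = 0.0229) on 3 to 10 counts, and the normalised level of the cytokine Il1b fell as well (-1.77, adjusted p = 0.0494). Behind the Il1b value stood counts of 19, 8 and 17, then 24, 3 and 19. These counts overlapped, so the fall of Il1b appeared only after the lanes were scaled. For Ccl5 and Il1b the differences were -2.85 and -2.68 with counts scaled to the lane total, and -1.42 and -2.62 with the covariate. With the covariate 4 of the 7 turned sign (Ccl3 -1.28, Ccl4 -0.37, Bcl2a1a -0.67 and Nlrp3 -0.11) and Il1a was 0.65, while all 7 stayed above 0 with counts scaled to the lane total (0.50 to 3.09). The median differences of the list were 0.19 at 24 h and 1.10 at 3 days relative to Sham and 1.20 between the TIA times, where all genes had 0.15, -0.01 and -0.25. The 6 measured genes of a list of immediate early and dissociation-linked transcripts (Fos, Jun, Egr1, Atf3, Ccl3 and Ccl4) all rose between the TIA times, and made up 0.595% to 2.36% of the signal in Sham, 1.11% to 1.67% in TIA 24h and 3.76% to 4.66% in TIA 3d. Their part in the Nfkbia and Nfkb2 values was not tested.

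The genes whose pattern over the 9 samples was most like each called transcript were named by Pearson's r of the log2 values. For Nfkb2 they were Myd88 (0.94), Fos (0.93), Cd68 (0.93), Eif1 (0.93) and Egr1 (0.91), where the median gene had -0.15. For Nfkbia they included Eef2k (0.92), Ccl3 (0.92), P2rx7 (0.90) and Cd84 (0.90), with a median gene at -0.08. For Rela they were Mbd3 (0.87), Ralb (0.86), Psmb8 (0.86), Irf8 (0.82) and Rhoa (0.80), with a median gene at -0.24. The 9 samples share 3 groups and the depth of their lanes, and the named genes themselves had an r of 0.77 to 0.95 with the log2 lane total.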

How the data were processed

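The labels put the 9 samples into Sham, TIA 24h and TIA 3d (3 each), and the study calls the sorted cells microglia-like. The deposited table held log2 values that the authors had made from nCounter barcode counts in ROSALIND, dividing each lane by the geometric mean of housekeeping probes picked by geNorm. The methods also name a filter on genes below the negative controls; the control probes were not analysed here, so how far low counts lie above background is unknown. Counts were recovered from the log2 steps of each lane and used for depth, intervals, pooled ratios, the range of counts over lanes and alternatives, and in no main test. Depth per lane was 6560 to 62883 counts, and intervals cover counting error only. Differences were tested on the deposited log2 values with limma 3.58.1 (R 4.3.3), a mean per group and eBayes over all 757 genes, two-sided, with Benjamini-Hochberg adjustment and a threshold of 0.05. The test was tried on simulated data first. All 10 transcripts are reported. From each pathway list, counts were given with genes of smallest p. The 5 genes of highest Pearson r were named per called transcript, except 1 that is not reported here. The transcripts and lists were chosen with earlier results of these data known. RefSeq promoters (GRCm38.p6) were matched by symbol, and 7 of the panel's symbols were older ones matched through synonyms. Alternatives were other scalings, a filter on low genes, the replicate block, array weights, a trended robust prior, voom, the lane total as covariate, the compared groups alone, and each sample left out.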

Additional observations from a re-analysis of the deposited data

Results flagged for a closer look

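The change against Sham differed between the TIA times for 3 of the 10 transcripts, by the limma test of TIA 3d against TIA 24h. Sham cancels in this difference, so it is the comparison already given and no separate result. None of the 10 passed against Sham at either time. The 3 did not pass with quantile normalisation, with counts scaled to the lane total or with the lane total as a covariate. The difference on the log2 scale was 2.19 for Rela (adjusted p = 0.0304), 1.89 for Nfkbia (adjusted p = 0.0474) and 1.62 for Nfkb2 (adjusted p = 0.0455), with all 3 TIA 3d samples above all 3 TIA 24h samples in each case. In the same test 19.2% of all 757 genes passed, 11.6% as higher. Groups of 3 are too small to be searched for single outlying samples by a formal rule. All TIA 3d lanes were deeper than all TIA 24h lanes, and depth and time cannot be told apart.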

How the results depend on the processing

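No transcript passed for TIA 24h against Sham under any alternative run. Over the 3 groups, 3 transcripts passed with median-centred samples, 3 with the replicate block, 3 with the trended robust prior, 6 with array weights, 2 with lane-total scaling and 1 with the low filter, which removed Nfkb2 and leaves it without a value. All genes that passed in these settings numbered 52, 54, 50, 295 and 244 of 757 and 40 of 568. The array weights were 0.45, 2.74 and 0.34 in Sham and 2.89, 0.87 and 1.03 in TIA 3d. The second Sham sample and the first TIA 3d sample thus weighed most in that setting. For TIA 3d against Sham 1 passed with the low filter, 1 with the replicate block (Nfkbia), 2 with the trended prior and 5 with array weights, where 1 of 568, 1, 8 and 174 of 757 genes passed. For TIA 3d against TIA 24h the count was 0 with quantile normalisation, 0 with the lane total as covariate and 1 with lane-total scaling (Ikbke), and 3 with the replicate block (7, 0, 379 and 140 of 757 genes). It was 2 with voom (97 genes) and with the low filter (141 of 568), and 4 with array weights (314), with the trended prior (177) and in the compared groups alone (249). Leaving out 1 sample at a time gave 0 to 3, 0 to 2 and 0 to 4 in these 3 tests. The highest counts came without the first or the third Sham sample (136 and 126 genes), without the first (84) and without the first or the third (226 and 219). In the last the count over all genes fell from 145 to 0 without the second or the third TIA 24h sample or the first or the third TIA 3d sample. Same-numbered samples had deviations from their group means with r of -0.24 to 0.27, and differently numbered ones with r of -0.37 to 0.31. Between the TIA times the same-numbered r were 0.094, 0.27 and 0.15. With 3 samples per group this check can neither show nor exclude pairing by number. The main test took the samples as unpaired.

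Among the 10 transcripts signs turned as follows, and the cause was not tested. Nfkbia between the TIA times was the one of these differences that had passed. With the covariate, TIA 24h against Sham was -0.32 for Ikbke and -0.18 for Ikbkg, TIA 3d against Sham -0.34 for Nfkb1, -0.78 for Rela, -0.46 for Chuk and 0.31 for Ikbke, and TIA 3d against TIA 24h -0.23 for Nfkb1, -0.69 for Nfkbia, -0.39 for Chuk, 0.63 for Ikbke and 1.12 for Ikbkg. With lane-total scaling, which moved the median of all genes to 0.36 at TIA 24h and -0.82 at TIA 3d relative to Sham and to -1.27 between the TIA times, the values were 0.14 for Ikbkb at TIA 24h against Sham, then -0.60 for Nfkb1, -0.56 for Rela, -0.42 for Chuk, -0.31 for Ikbkb and -0.74 for Ikbkg at TIA 3d against Sham, and -0.49 for Nfkb1, -0.76 for Relb, -0.33 for Nfkbie, -0.25 for Chuk and -0.45 for Ikbkb between the TIA times. Quantile normalisation gave -0.077 for Nfkbie, -0.11 for Ikbke and -0.11 for Ikbkg at TIA 24h against Sham, -0.70 for Nfkb1 at TIA 3d against Sham, and -0.58 for Nfkb1 and 0.12 for Ikbkg between the TIA times. Median centring gave -0.0009 for Ikbke and -0.021 for Ikbkg at TIA 24h against Sham and 0.22 for Ikbkg between the TIA times. Ikbkb at TIA 24h against Sham was 0.10 with array weights and 0.016 with voom. The relation to depth was -0.44 for Rela and 0.28 for Ikbkb without 2 lanes.

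Leaving out 1 sample moved TIA 24h against Sham from -0.036 to 0.95 for Nfkb2, -0.10 to 0.53 for Nfkbie, -0.31 to 0.35 for Ikbkb, -0.17 to 0.55 for Ikbke and -0.024 to 0.44 for Ikbkg. It moved TIA 3d against Sham from -0.026 to 0.62 for Rela and -0.24 to 0.32 for Ikbkg, and TIA 3d against TIA 24h from -0.19 to 0.62 for Relb and -0.40 to 0.051 for Ikbkg. Counts under 10 in at least 1 Sham or TIA 24h lane limit all of the transcripts but Nfkb1 and Ikbke.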

Other observations

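Differences between a pair of transcripts within a lane do not depend on how the lane was scaled. The log2 value of Nfkbia minus that of Nfkb1 was -2.66, -4.13 and -4.32 in Sham, -1.75, -1.78 and -2.00 in TIA 24h, and -0.51, -0.93 and 0.15 in TIA 3d. The 3 groups did not overlap in this measure, which is 1 of 4 pairs looked at, was chosen after the values were seen and has no test. In the other pairs groups overlapped. Nfkbia minus Nfkbie overlapped between Sham and TIA 24h and between the TIA times. Nfkb2 minus Nfkb1 overlapped between Sham and TIA 24h, while TIA 3d (-1.74, -1.02 and -1.24) lay above all other lanes, and Rela minus Nfkb1 was -3.17, -4.59 and -1.68 in TIA 24h and -1.61, -1.93 and -0.77 in TIA 3d, which also overlap. The Sham values of Nfkbia minus Nfkb1 rest on 12, 2 and 1 counts of Nfkbia, and nothing is drawn from them.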
